A study of Allium mongolicum with 12 samples.

Results

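The 200 transcript features that took the most reads in unstressed roots of Allium mongolicum, a wild onion of dry steppe, were followed through 72 h of saline-alkali stress. They were chosen as the 200 of 98328 features with the highest mean CPM over the 3 control libraries, where CPM is a feature's count divided by its library's total and multiplied by 1000000. All 200 passed the filter on low counts, and the lowest value of any of them in any library was 29.1 CPM. The groups are unstressed roots at 0 h (CK) and roots that had spent 24 h (T24), 48 h (T48) or 72 h (T72) in a solution of NaCl, Na2SO4, NaHCO3 and Na2CO3 at 1, 9, 9 and 1 parts and 150 mmol/L in all, with 3 libraries each. All groups share 7 days of germination, 45 days of seedling growth at 25 °C and then 7 days in diluted Hoagland solution. Each group drew on 20 seedlings, whose division among libraries is not given, and p-values reflect no more than differences among these libraries, which may be technical. Unstressed roots of 24, 48 or 72 h are not among these samples, so stress cannot be told apart from elapsed time or harvest.

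In plant roots, as in other tissues, a small number of transcripts takes a large part of all messenger RNA reads. Ribosomal proteins, translation elongation factors, histones, tubulins, aquaporins and small metal-binding proteins are typical of this upper end, and in onions and their relatives storage lectins and alliinase, the enzyme that releases the sulfur volatiles, are known for high abundance in some organs. High salt and high pH together disturb water uptake, sodium exclusion and the proton gradients that drive nutrient transport. None of these roles could be assigned here: the features carry assembly IDs, the file does not pair them with gene names, and no sequence was used. Features are therefore called by their CK rank, where rank 1 has the highest mean CPM. The file gives no transcript lengths, so a rank orders features by reads and not by molecules. In whole roots, fewer cells of a type and less RNA per cell also cannot be told apart.

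Library totals ran from 23099287 to 26388120 estimated counts. Replicates at 24 h were nearly alike, and T48 replicate 2 was about as close to the CK libraries as to the other T48 libraries. Over the 200 features the log2 CPM of pairs of T24 libraries correlated at 0.994 to 0.998, and those of CK pairs at 0.568 to 0.755. T48 replicate 2 correlated at 0.693 to 0.732 with the CK libraries and at 0.71 and 0.753 with the other T48 libraries, which correlated at 0.953 with each other. The median coefficient of variation of a feature's CPM between libraries was 16.3% in CK, 2.94% in T24, 19.9% in T48 and 16.1% in T72. The edgeR test assumes the same spread in every group, which these values do not show. The low spread of T24 enters the estimate that all comparisons share. The p-values of comparisons without T24 may therefore be too small.

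The values that chose the features are given as a description. Mean CPM in CK was 3894 at rank 1, 1944 at rank 10, 966 at rank 50, 665 at rank 100 and 454 at rank 200, and 48 features were at 1000 CPM or more. The edge of the choice was not sharp: in CK replicates 1, 2 and 3 the last feature inside, rank 200, had 398, 570 and 395 CPM, and the first outside had 298, 516 and 548 CPM. The libraries on both sides of the edge overlapped. Of the 200 features, 135 were among the 200 highest of every CK library, 51 of exactly 2 and 14 of a single one. Control libraries differed widely at rank 41, with 503, 717 and 1984 CPM, and more so at rank 5, with 3680, 702 and 2477 CPM. In 35 features the highest CK library was at least 2 times the lowest, and in 6 at least 4 times. The 200 features came from 200 assembly genes, 107 of which (53.5%) had another feature in the table, against 34.6% of all assembly genes, and reads may be divided between such features.

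The share of all counts taken by the 200 features moved by less than 1 percentage point between group means. It was 16.9% ± 0.181 in the CK group (16.8% to 17.1%) and 16.1% ± 0.179 in T24 (15.9% to 16.3%), with SD over 3 libraries here and below. It was 16.4% ± 0.197 in T48 (16.2% to 16.6%) and 16.5% ± 0.768 in T72 (15.8% to 17.3%). The T24 and T48 libraries thus lay below every CK library, and the T72 libraries spread across them. A choice made on CK favours a lower share elsewhere. When the features were instead chosen on 2 CK libraries and set against the CK library left out, the share relative to CK averaged 0.975, 1.00 and 1.00 at 24, 48 and 72 h. With the choice on all 3 libraries it was 0.953, 0.972 and 0.974.

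**Figure D1:**
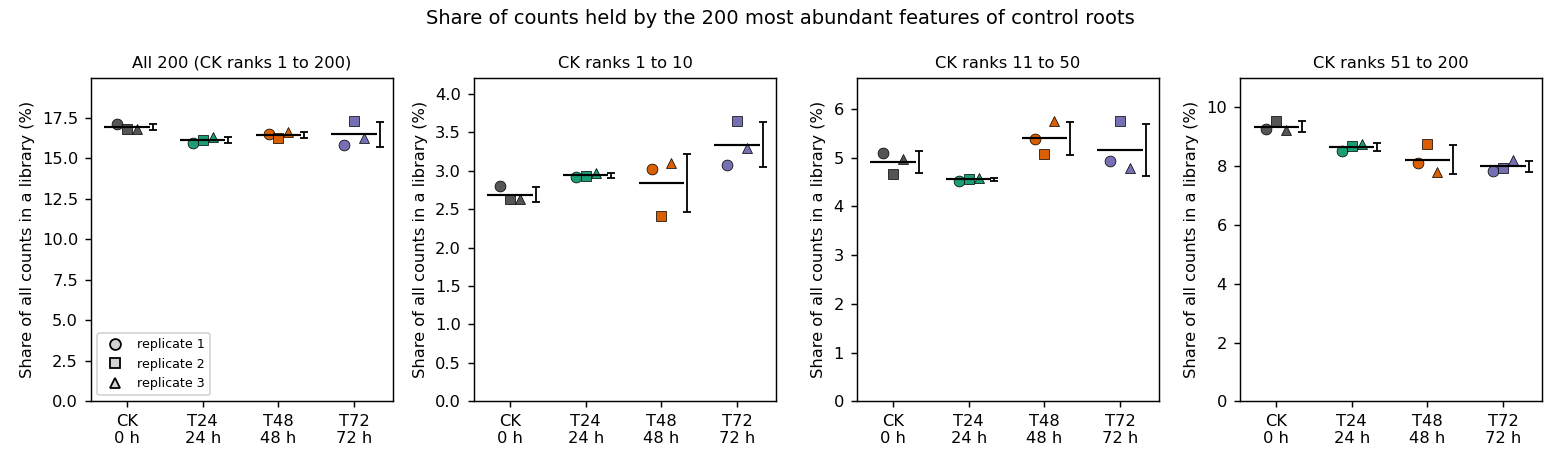
Share of all counts (%) in each of the 12 libraries, from left to right for all 200 features and for CK ranks 1 to 10, 11 to 50 and 51 to 200. Points are libraries, lines are group means and error bars are SD. The total stays between 15.8% and 17.3%, while ranks 51 to 200 hold 7.99% at 72 h and 9.33% in CK.

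Within the list, the lower and the upper ranks differed in how their share moved. Ranks 51 to 200 held 9.33% ± 0.182 of the counts in CK, 8.64% ± 0.122 in T24, 8.21% ± 0.497 in T48 and 7.99% ± 0.195 in T72. Every T24, T48 and T72 library lay below every CK library in these ranks (7.78% to 8.75% under stress, 9.20% to 9.54% in CK). The ranks come from the same CK values, which favours a lower share under stress. In a comparison added after the data were seen, with the ranks set on 2 CK libraries and read against the CK library left out, the share of ranks 51 to 200 relative to CK averaged 0.940, 0.911 and 0.890 at 24, 48 and 72 h, where it was 0.926, 0.880 and 0.856 with all 3. Ranks 1 to 10 held 2.68% ± 0.0968 in CK, 2.94% ± 0.0303 in T24, 2.84% ± 0.374 in T48 and 3.34% ± 0.290 in T72. All T24 and T72 libraries lay above CK there, while T48 replicate 2, with 2.41%, lay below it. This sum rested on few features: rank 1 alone added 0.193 percentage points at 24 h and rank 5 alone 0.476 at 72 h, and the fitted level was above CK in 5 of the 10 at 24 h and in 4 of the 10 at 72 h. At 72 h, 75 features lay above their CK mean and added 3.64 percentage points, while 125 lay below it and dropped by 4.08 in sum. At 24 h the 84 gains summed to 2.27 points and the 116 others dropped by 3.06 points, and at 48 h the 72 gains summed to 2.41 and the other 128 dropped by 2.89 points.

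The features with the greatest gains were ranks 5 and 15, which added 0.508 and 0.378 points at 48 h and 0.476 and 0.354 points at 72 h. They moved together with rank 28, and the 3 were singled out after their values were seen. Rank 5 had 3680, 702 and 2477 CPM in CK, 2362, 2512 and 2515 CPM at 24 h, 8928, 3325 and 9859 CPM at 48 h and 5266, 10892 and 4983 CPM at 72 h, in replicates 1, 2 and 3. By group mean it was the highest of all features at 48 h and at 72 h. Another feature was higher in T48 replicate 2 (4039 CPM) and in T72 replicates 1 and 3 (6704 and 8029 CPM). All 3 libraries of T72 lay above all CK libraries, while T24 and T48 replicate 2 lay within the CK range. Rank 15 had 3437, 8354 and 3592 CPM at 72 h, against 2482, 487 and 1804 CPM in CK, and rank 28 had 2695, 5592 and 2692 CPM at 72 h, against 1783, 355 and 1378 CPM in CK. The ratio of rank 5 to rank 15 stayed between 1.30 and 1.53 over the 12 libraries, although rank 5, the least variable of the 3, itself ranged 15.5-fold, and the ratio of rank 5 to rank 28 stayed between 1.80 and 2.08. Among the 3486 pairs of features that varied by at least 0.5 (SD of log2 CPM), the pairs within these 3 were the most alike, with correlations of 0.998 to 0.999 over 12 libraries that share groups. Their IDs belong to 3 different assembly components.

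The 3 features together took 0.505% ± 0.324 of the counts in CK, 0.540% ± 0.0181 in T24, 1.65% ± 0.802 in T48 and 1.58% ± 0.780 in T72. The other 197 held 16.4% ± 0.224 in CK, 15.6% ± 0.162 in T24, 14.8% ± 0.612 in T48 and 14.9% ± 0.227 in T72. Taking out features for their gains, like the choice on CK, favours a lower share under stress. Held-out CK libraries were also used here after the data were seen. The share without the 3 relative to CK then averaged 0.972, 0.928 and 0.932 at 24, 48 and 72 h. With all 3 CK libraries it was 0.95, 0.901 and 0.907. Single held-out libraries gave 0.94 to 1.02 at 24 h, 0.90 to 0.96 at 48 h and 0.91 to 0.97 at 72 h. Holding out CK libraries lessens only the effect of the choice on CK. The same 3 features were taken out each time, so a lower share stayed favoured. None of the 3 passed the test in any comparison: rank 5 had a fitted log2 change of 1.57 ± 0.54 at 48 h (adjusted p = 0.193) and 1.5 ± 0.54 at 72 h (adjusted p = 0.144) against CK, edgeR quasi-likelihood test, ± SE. Libraries of the same group differed widely, with CK replicate 2 at 702 CPM and CK replicate 1 at 3680 CPM.

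Many of the features lost their place among the 200 highest, as some also did between CK libraries. Of the 200 features, 147 were among the 200 highest of T24, 155 of T48 and 129 of T72, and 116 were in all 4 lists. When 200 features were chosen on 2 CK libraries, 155 to 167 were among the 200 highest of the CK library left out. By group mean, 138 to 149 were among the 200 highest of T24, 150 to 159 of T48 and 123 to 133 of T72. The left-out list rests on 1 library and the others on means of 3, so these counts are not like for like. In single T24 libraries, 147, 145 and 148 of the original 200 features were among the 200 highest. Single T48 libraries had 138, 154 and 135, and single T72 libraries 126, 132 and 123. Rank 1 stood at rank 1 at 24 h, 4 at 48 h and 2 at 72 h. The 53, 45 and 71 features that left the lists at 24, 48 and 72 h came mostly from the lower end, with 41, 37 and 48 of them from the lower 100 of the 200. Those that left at 72 h held 1.80% of counts at 72 h and 4.58% in CK. Their replacements held 4.02% of counts at 72 h and 2.36% in CK. The direction of both differences is set by how the leaving and replacing features are defined. Of the 71 replacements, 44 came from the 200 CK ranks just below the list. Beyond rank 1000 lay 5 of the 200 at 24 h, 5 at 48 h and 13 at 72 h, the lowest at rank 3779. Each library's own 200 highest held 17.3% ± 0.144 of the counts in CK, 17.5% ± 0.217 in T24, 17.9% ± 0.625 in T48 and 18.9% ± 0.596 in T72, with no group mean below that of CK.

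**Figure D2:**
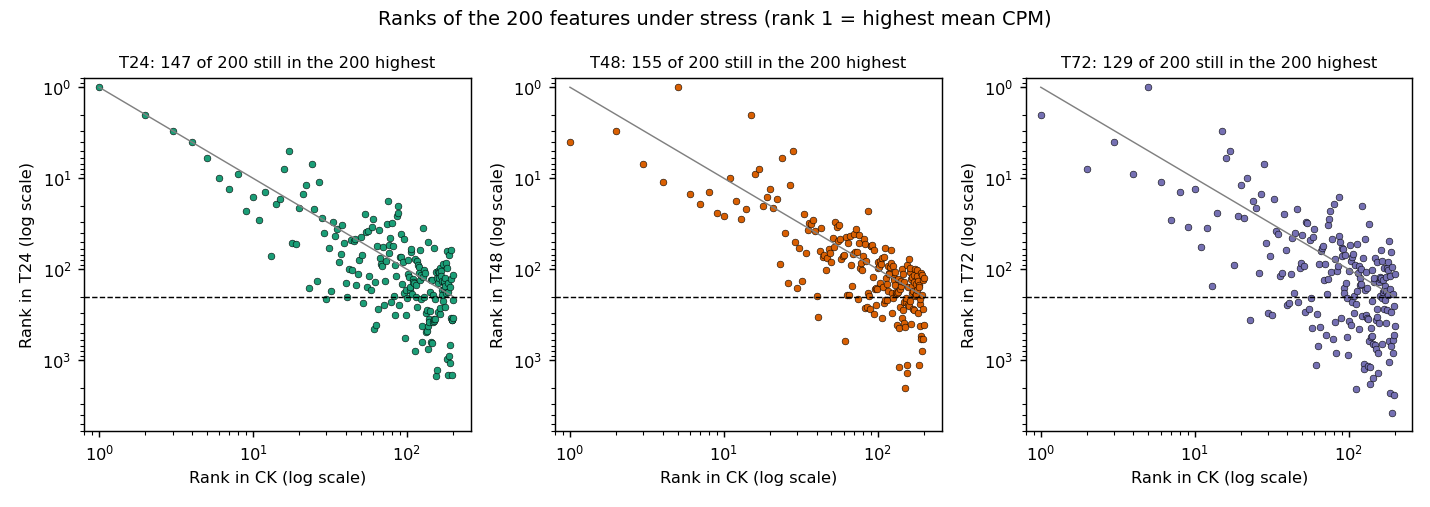
Rank of each of the 200 features in T24, T48 and T72 (vertical, log scale) against its rank in CK (horizontal, log scale), where rank 1 is the highest mean CPM. Grey lines mark equal ranks and dashed lines rank 200. Features under the dashed line number 53, 45 and 71 at 24, 48 and 72 h.

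After 24 h, 3 of the 200 features were higher and 35 lower than in CK (called by edgeR at an adjusted p below 0.05, with Benjamini-Hochberg adjustment over all features tested). Over all features tested 2.62% were called higher and 1.5% lower. CK both chose the features and forms a side of the comparisons at 24, 48 and 72 h, so the calls and p-values against CK are descriptions, and nothing is read from the excess of falls. The next 200 features by CK rank gave 5 rises and 37 falls. They were ranked on the same CK values, so they are not an unselected comparison. The median log2 change was -0.26 over the 200, -0.32 over the next 200 and 0.08 over all features tested. With library totals as the only scaling the median of the 200 stood at -0.12 and that of all features at 0.21, so the distance between them was -0.34 under either scaling, and 7 features were higher and 25 lower.

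The called rises at 24 h were the features at ranks 87, 27 and 17. Rank 27 had 2059, 2168 and 2366 CPM at 24 h, against 1371, 1113 and 1069 CPM in CK, with no overlap (log2 change 0.75 ± 0.13, adjusted p = 0.0125). Among the falls, rank 197 had 130, 104 and 127 CPM at 24 h, against 252, 527 and 599 CPM in CK (-2.07 ± 0.39, adjusted p = 0.0176). Rank 112 had 182, 188 and 169 CPM at 24 h, against 538, 716 and 600 CPM in CK (-1.92 ± 0.36, adjusted p = 0.0181). In 83 features all T24 libraries lay below all CK libraries, and in 50 above them, which 9.49% and 25.2% of all features tested did. The 38 calls depended on the T24 libraries: 3 were called without T24 replicate 1, 2 or 3, and 0 with the T24 libraries averaged to 1 library (49 of 200 at an unadjusted p below 0.05, edgeR), while DESeq2 gave 75. Without CK replicate 2 or 3 there were 21 or 18, and without T48 replicate 2 there were 72.

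After 48 h, 3 of the 200 features were higher (ranks 24, 87 and 27) and 4 lower (ranks 151, 138, 61 and 10) than in CK, where 0.378% and 0.313% of all features were called. The median log2 change was -0.25 over the 200 and -0.25 over the next 200. Rank 24 had 2978, 2773 and 3056 CPM at 48 h, against 1652, 1080 and 929 CPM in CK (log2 change 1.17 ± 0.22, adjusted p = 0.0422, edgeR). Its level at 72 h was 1286, 1826 and 1197 CPM, which overlapped CK. Rank 151 had 93.2, 98.8 and 92.9 CPM at 48 h, against 481, 482 and 633 CPM in CK (-2.57 ± 0.17, adjusted p = 0.000459), and stood at rank 1997 of all features. In 10 features all T48 libraries lay above CK and in 37 below, as in 9.3% and 5.52% of all features. T48 replicate 2 weighed heavily: without it 5 features were higher and 51 lower. The count was 1 without any single other T48 library or any T24 library, 4 without CK replicate 2, 1 with T24 averaged, 1 with only CK and T48 in the fit, 15 with a stricter filter and 42 with DESeq2.

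After 72 h, 7 of the 200 features were higher and 65 lower than in CK, against 2.06% and 2.69% of all features tested. The next 200 features gave 2 rises and 58 falls, and the 600 after them 15 and 132. The median log2 change was -0.39 over the 200, -0.31 over the next 200 and 0.06 over all features tested. With library totals alone 15 were higher and 57 lower, the median of the 200 was -0.26 and that of all features 0.19. In mean CPM, 53 of the 200 stood at least 2-fold below CK and 9 at least 2-fold above it. By fitted change these were 63 and 7 of the 200, against 54 and 4 of the next 200 by CK rank. In 83 features all T72 libraries lay below CK and in 28 above, as in 9.08% and 16.8% of all features. The count of 72 was 39 without T72 replicate 1 or 3 and 35 with the T24 libraries averaged.

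**Figure D3:**
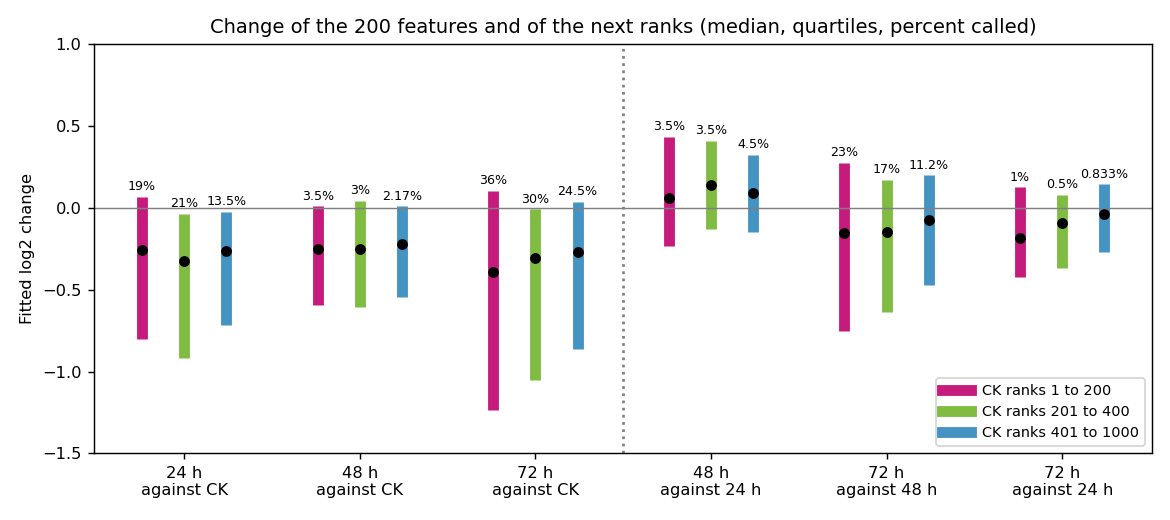
Fitted log2 change (vertical) in 6 comparisons for the 200 features, the next 200 by CK rank and the 600 after those. Dots are medians, bars run from the lower to the upper quartile, and the percent called is printed above each bar. Left of the dotted line CK is a side of the comparison. At 72 h against CK 36% of the 200 features were called and 30% of the next 200.

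The rises at 72 h were led by ranks 17, 16 and 122. Rank 16 had 4277, 4202 and 3429 CPM at 72 h, against 1817, 1435 and 1275 CPM in CK (1.26 ± 0.19, adjusted p = 0.00572, edgeR). Rank 122 had 1512, 1294 and 1385 CPM at 72 h, against 725, 558 and 488 CPM in CK (1.11 ± 0.16, adjusted p = 0.00495). Both had their T72 libraries apart from CK, with intermediate levels of 2321 to 2402 and 870 to 888 CPM at 24 h. The falls were led by ranks 191, 112 and 61. Rank 112 had 60.5, 129 and 83.1 CPM at 72 h, against 538, 716 and 600 CPM in CK (-2.89 ± 0.37, adjusted p = 0.003). Among the 10 highest features, ranks 7 and 9 fell: rank 7 had 1178, 1157 and 1481 CPM at 72 h, against 2228, 2083 and 1792 CPM in CK, and rank 9 had 1135, 1244 and 1146 CPM at 72 h, against 1982, 1898 and 1987 CPM in CK. Their log2 changes were -0.81 ± 0.12 (adjusted p = 0.00601) and -0.87 ± 0.14 (adjusted p = 0.00712).

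Of the 200 features, 8 had all 9 stressed libraries above all CK libraries and 20 had them below, as did 3.04% and 1.53% of all features tested. Of these, 2 and 12 were called at both 24 h and 72 h. The share of all features tested that met both conditions was not counted, and CK chose the features, so nothing is read from these counts. Among those called at both times, the 2 with the greatest mean change in each direction are named by their IDs. TRINITY_DN38954_c0_g1_i7_3 (rank 87) had 814, 707 and 610 CPM in CK, 1498, 1466 and 1492 CPM at 24 h, 1330, 1210 and 1529 CPM at 48 h and 1805, 1577 and 1632 CPM at 72 h. Its log2 change from CK was 0.93 ± 0.12 at 24 h (adjusted p = 0.00433), 0.84 ± 0.12 at 48 h (adjusted p = 0.0196) and 1.10 ± 0.12 at 72 h (adjusted p = 0.00147), all edgeR. TRINITY_DN39066_c0_g1_i3_1 (rank 17) had 1678, 1518 and 1250 CPM in CK, 2879, 2443 and 2347 CPM at 24 h, 2557, 2058 and 2995 CPM at 48 h and 4307, 3946 and 4270 CPM at 72 h. It stood at rank 5 at 24 h and again at 72 h, with a log2 change from CK of 1.36 ± 0.14 at 72 h (adjusted p = 0.0013).

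TRINITY_DN40544_c0_g4_i2_4 (rank 61) had 855, 1035 and 755 CPM in CK, 260, 263 and 244 CPM at 24 h, 179, 333 and 129 CPM at 48 h and 139, 157 and 123 CPM at 72 h. The log2 change from CK was -1.92 ± 0.31, -2.11 ± 0.31 and -2.79 ± 0.32 at 24, 48 and 72 h (adjusted p = 0.00999, 0.0226 and 0.0019, edgeR), and its rank at 72 h was 1113. TRINITY_DN44106_c0_g1_i6_2 (rank 191) had 493, 571 and 341 CPM in CK, 146, 151 and 147 CPM at 24 h, 168, 311 and 184 CPM at 48 h and 29.1, 95 and 40.7 CPM at 72 h. It was called at 24 h (-1.80 ± 0.42, adjusted p = 0.0392) and 72 h (-3.21 ± 0.44, adjusted p = 0.0037) and not at 48 h (adjusted p = 0.203), and it ended at rank 3779, the lowest of the 200.

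**Figure D4:**
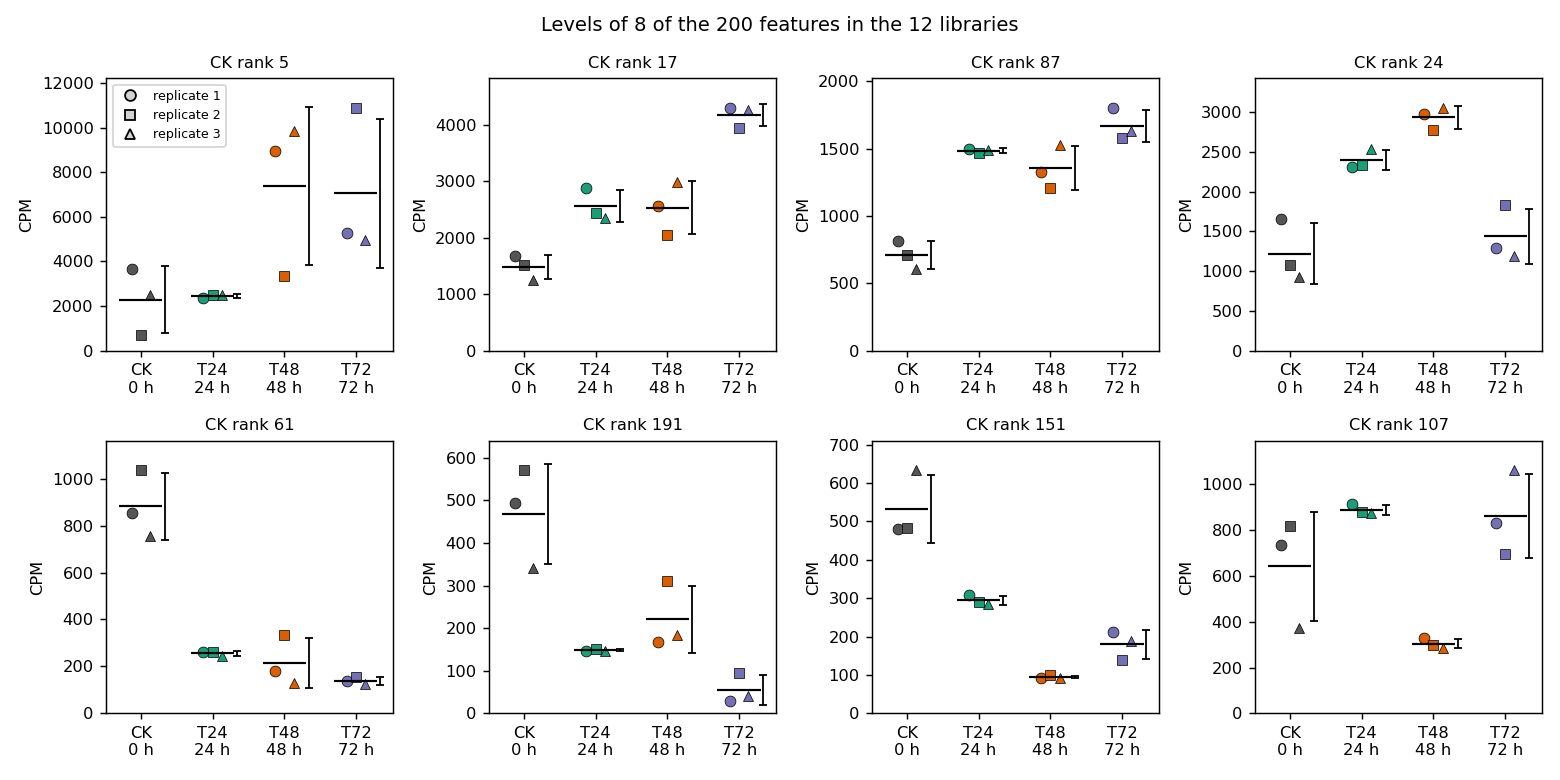
CPM (vertical, from 0) of 8 of the 200 features in CK, T24, T48 and T72. Points are the 3 libraries of each group, lines are means and error bars are SD. Ranks 17 and 87 have all 9 stressed libraries above CK and ranks 61, 151 and 191 have them below. Rank 107 is lowest at 48 h.

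CK is no side of the comparisons among the stress times, though the CK libraries enter the spread and the scaling that all comparisons share. In an F test over 24, 48 and 72 h, 45 of the 200 features (22.5%) differed, against 4.85% of all features tested, 16% of the next 200 by CK rank and 12.3% of the 600 after them. Rank 151 had the greatest F (49.3, adjusted p = 0.00133), and rank 62 followed (41.8, adjusted p = 0.002). The count was 13 to 16 without any 1 T24 library, 29 when T48 replicate 1 was left out, and 17 or 15 when T72 replicate 1 or 3 was. No feature was called (0) with the T24 libraries averaged (79 at an unadjusted p below 0.05, edgeR), and DESeq2 called 84.

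At 72 h, 15 features were higher and 31 lower than at 48 h, against 1.04% and 1.31% of all features tested, with 4 higher and 30 lower among the next 200 by CK rank. The 31 falls ranged from -0.80 to -2.27 on the log2 scale. Rank 125 had 122, 188 and 111 CPM at 72 h, against 563, 1007 and 367 CPM at 48 h (-2.27 ± 0.35, adjusted p = 0.00946, edgeR). Rank 112 had 60.5, 129 and 83.1 CPM at 72 h, against 331, 638 and 261 CPM at 48 h (-2.24 ± 0.37, adjusted p = 0.012). Rank 191 had 29.1, 95 and 40.7 CPM at 72 h, against 168, 311 and 184 CPM at 48 h (-2.06 ± 0.42, adjusted p = 0.0298). In each of these the T72 libraries lay below all T48 libraries. T48 replicate 2 was the highest T48 library in all 3. The lower T48 libraries, replicates 1 and 3, were also above T24 for ranks 112, 125 and 191.

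The 31 were chosen through the T48 and T72 libraries, so how these stand relative to CK and T24 is partly set by the choice and is given as a description. Together they held 2.46%, 2.72% and 2.17% of counts in CK, 1.55%, 1.59% and 1.63% at 24 h, 2.41%, 3.03% and 2.19% at 48 h and 0.887%, 1.31% and 0.981% at 72 h, in replicates 1, 2 and 3. Between 24 h and 48 h, 3 of the 31 were called. Over the 200 features all T72 libraries lay above all T48 libraries in 44 and below in 57, as in 11.4% and 8.91% of all features tested. In 41 of the 200 features all T48 libraries lay above all T24 and T72 libraries, and in 35 below, as did 4.56% and 5.81% of all features tested. The count of 46 was 36 without T48 replicate 2, with 14 higher and 22 lower. It was 24 without any 1 T24 library, 28 when T48 replicate 1 was left out, 4 or 7 without T72 replicate 1 or 3, 3 with T24 averaged and 80 with DESeq2. With only T48 and T72 in the fit edgeR called 0, with 92 of 200 at an unadjusted p below 0.05.

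**Figure D5:**
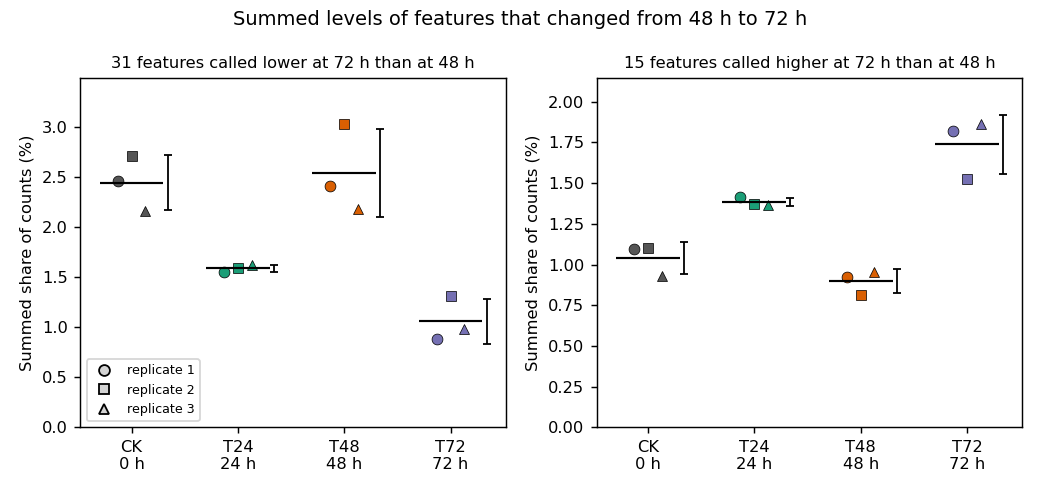
Summed share of counts (%) of the 31 features called lower (left) and the 15 called higher (right) at 72 h than at 48 h, in each library. Points are libraries, lines are means and error bars are SD. The 31 lie at 2.17% to 2.72% in CK, 2.19% to 3.03% at 48 h and 0.887% to 1.31% at 72 h, and the difference between 48 h and 72 h is fixed by how the sets were chosen.

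The 15 rises between 48 h and 72 h ranged from 0.54 to 1.51 on the log2 scale, and were led by ranks 74, 107 and 95. Rank 74 had 1128, 1152 and 1333 CPM at 72 h, against 433, 289 and 517 CPM at 48 h (1.51 ± 0.29, adjusted p = 0.0243, edgeR). Rank 107 had 828, 696 and 1060 CPM at 72 h, against 327, 300 and 287 CPM at 48 h (1.45 ± 0.25, adjusted p = 0.0146). Rank 95 had 804, 692 and 1004 CPM at 72 h, against 382, 298 and 288 CPM at 48 h (1.32 ± 0.27, adjusted p = 0.0278). All 3 T48 libraries lay below all T72 and all T24 libraries in each. At rank 107 they also lay below all CK libraries and the T24 libraries above them, a pattern that 3 of the 200 features and 0.329% of all features tested showed. CK replicate 3 was also low in these features, with 416, 371 and 376 CPM for ranks 74, 107 and 95, against 736 to 1117 CPM in CK replicates 1 and 2. The pairs among them correlated at 0.942 to 0.985 over the 12 libraries. All 3 were picked for their rise from 48 h to 72 h, so this likeness is partly set by the choice. Of the 3486 pairs of features that varied by at least 0.5 (SD of log2 CPM), 109 reached 0.95.

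Between 24 h and 48 h, 3 features rose (ranks 52, 135 and 62) and 4 fell (ranks 95, 151, 74 and 107), against 0.467% and 1.5% of all features tested. Rank 52 had 716, 1246 and 630 CPM at 48 h, against 413, 383 and 379 CPM at 24 h (1.21 ± 0.26, adjusted p = 0.0405, edgeR). Rank 62 had 1006, 1016 and 800 CPM at 48 h, against 512, 536 and 540 CPM at 24 h (0.88 ± 0.18, adjusted p = 0.0305), and 270, 373 and 304 CPM at 72 h. Rank 95 had 382, 298 and 288 CPM at 48 h, against 1007, 1015 and 1015 CPM at 24 h (-1.60 ± 0.27, adjusted p = 0.0132). Rank 151 had 93.2, 98.8 and 92.9 CPM at 48 h, against 308, 290 and 284 CPM at 24 h (-1.58 ± 0.16, adjusted p = 0.00153), and rose to 213, 139 and 189 CPM at 72 h (log2 change from 48 h 0.87 ± 0.16, adjusted p = 0.0179). The T48 libraries lay above T24 in 50 features and below in 58, as in 9.68% and 17.1% of all features tested. The median log2 change was 0.06 over the 200, and -0.06 without T48 replicate 2. Without T48 replicate 2 the 7 calls became 16 (1 higher and 15 lower), and without T48 replicate 3 they became 11. Without any 1 CK library they were 11 or 12, without any 1 T24 library 1, with T24 averaged 0 (25 at an unadjusted p below 0.05, edgeR) and with DESeq2 42. With only T24 and T48 in the fit they were 22, with a stricter filter 13 and with library totals alone 12.

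Between 72 h and 24 h only ranks 17 and 7 were called, 1 higher and 1 lower, against 0.152% and 1.03% of all features tested. Rank 17 had 4307, 3946 and 4270 CPM at 72 h, against 2879, 2443 and 2347 CPM at 24 h (0.71 ± 0.14, adjusted p = 0.0396, edgeR). Rank 7 had 1178, 1157 and 1481 CPM at 72 h, against 1998, 1988 and 2021 CPM at 24 h (-0.65 ± 0.12, adjusted p = 0.0306). With library totals alone 0 were higher and 3 lower, and with RLE size factors 1 and 2. In 87 features all T72 libraries lay below all T24 libraries and in 29 above, as in 16.5% and 12.2% of all features tested, and the median log2 change was -0.18 over the 200 and 0.00 over all features. The calls were 0 without any 1 T24 library or T72 replicate 1 (33 to 39 at an unadjusted p below 0.05, edgeR), 1 without T48 replicate 1 or T72 replicate 3, 13 without T48 replicate 2, 4 or 7 without CK replicate 1 or 3, 5 without T72 replicate 2, 6 with a stricter filter, 40 with only T24 and T72 in the fit and 20 with DESeq2.

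Of the 10 highest features, 7 stayed among the 10 highest at 24 h, 4 at 48 h and 5 at 72 h, and none stood beyond rank 34 in any group. Ranks 7, 9 and 10 were called in at least 1 comparison and the other 7 in none. Rank 3 had 2794, 2713 and 2131 CPM at 48 h, against 1910, 4970 and 4115 CPM in CK, where CK replicate 1 lay below all T48 libraries and the other CK libraries above them. Rank 4 had 1915, 2426 and 2278 CPM at 48 h, against 3002, 3278 and 3142 CPM in CK, apart from CK but with an adjusted p of 0.0524 (edgeR). Ranks 6 and 8 overlapped CK at 48 h and at 72 h.

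No call in any of these 7 tests was made for 109 of the 200 features, which does not show that they were unchanged. The matching share of all features tested was not counted, so the 109 only describe the list. The highest library was less than 1.5 times the lowest in 25 features, and at least 4 times it in 50. The narrowest was rank 157, which ran from 457 through a median of 523 to 557 CPM over all 12 libraries, a ratio of 1.22. Rank 35 ran from 920 through a median of 1106 to 1170 CPM, a ratio of 1.27. The widest was rank 41, with a ratio of 30.4 between its lowest library, T48 replicate 1 (65.4 CPM), and its highest, CK replicate 3 (1984 CPM). The feature at rank 2 had 4259, 4145 and 3239 CPM in CK, 4386, 4673 and 4623 CPM at 24 h, 4240, 4039 and 4236 CPM at 48 h and 3167, 3612 and 4170 CPM at 72 h, with no call in any comparison.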

How the data were processed

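RNA of 12 root libraries was sequenced as paired 150 bp reads and trimmed with Trimmomatic, per the labels' protocols and the submitters' processing notes. The assembler, aligner, counter and strand setting were not given in the sources used here. As deposited by the authors, the table holds estimated counts per assembled feature (1 of 990048 values above 0 is whole), and its 12 columns name the samples. CPM was computed on column totals, and a share is a sum of counts over the total. For tests, counts were rounded, filtered with filterByExpr (76273 of 98328 features kept) and scaled with TMM factors. One edgeR 4.0.16 quasi-likelihood model (R 4.3.3) over all 12 libraries, with 8 residual degrees of freedom, gave two-sided contrasts and an F test over 24, 48 and 72 h, adjusted over all features. It was tested on simulated data drawn with the same spread in every group, which does not cover the unequal spread of these libraries. The plan had assumed raw counts, so rounding was added.

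Ranks 1 to 10, the 3 largest called rises and falls of each comparison, the 2 largest F values and the features at the edge of the choice are described by rank, some by name only. IDs are printed for 4 features: the 2 largest mean rises and falls among those called at both 24 h and 72 h with all stressed libraries on 1 side of CK. Others are named where said. The members, lists and tests were chosen with earlier results of these data known. Alternatives were RLE factors, library totals, DESeq2 1.42.0, no filter, a stricter filter (1 CPM in 3 libraries, mean count 10), a block, fits on the groups compared, averaged T24 libraries and leaving out each library. The share and ranks were also taken with 100 and 500 features, a median in place of the mean, and held-out CK libraries, the last by rank band only after the data were seen.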

Additional observations from a re-analysis of the deposited data

Results flagged for a closer look

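In 3 of the 200 features every T24 library lay above every CK library and every T48 library below every CK library, so that the 24 h and 48 h differences from CK pointed in opposite directions. This was so in 0.329% of all features tested. These CPM use library totals, and the fitted values use TMM factors. At rank 107 the fitted log2 difference between 48 h and 24 h was -1.493 (adjusted p = 0.0136, edgeR), with 327, 300 and 287 CPM at 48 h, against 911, 876 and 872 CPM at 24 h, and CK at 736, 815 and 371 CPM. At rank 193 it was -0.2901 (adjusted p = 0.14), from 441, 429 and 437 CPM at 48 h, against 547, 552 and 554 CPM at 24 h. CK stood between these, at 444, 470 and 488 CPM. At rank 157 it was -0.1638 (adjusted p = 0.423), from 497, 457 and 478 CPM at 48 h, against 546, 557 and 555 CPM at 24 h, with CK at 519, 502 and 534 CPM. Ranks 193 and 157 did not pass the test of the difference, and on the TMM scale the 24 h difference of rank 157 from CK was -0.04.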

How the results depend on the processing

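With 100 features the share relative to CK was above 1 at 48 h and 72 h, and with held-out CK libraries it was at about 1 at these times. The median change over the list turned from 0.0566 to -0.0618 for 48 h against 24 h when T48 replicate 2 was left out, and no median of the other 5 comparisons changed sign. Of 760 repeats for single features, 589 stayed on the same side of the threshold, 168 lost their call and 3 gained one. Calls, 24 h against CK (38): DESeq2 75, only the groups compared 78, T24 averaged 0, leaving out 1 library 3 to 72. For 48 h against CK (7), these gave 42, 1, 1 and 1 to 56, and the stricter filter 15. For 72 h against CK (72), T24 averaged gave 35 and leaving out 1 library 39 to 94. For 48 h against 24 h (7), DESeq2 gave 42, only the groups compared 22, T24 averaged 0, library totals 12, the stricter filter 13 and leaving out 1 library 1 to 16. For 72 h against 48 h (46), they were 80 with DESeq2, 0 with only the groups compared, 3 with T24 averaged and 4 to 49. For 72 h against 24 h (2), they were 20, 40, 0 and 0 to 13, and 6 with the stricter filter. The F test (45) gave 84 with DESeq2, 0 with T24 averaged and 13 to 48. Averaging leaves 1 sample at 24 h, assumed to vary like the other groups, and a fit on 2 groups has fewer degrees of freedom. For other differences the cause was not tested.

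With the replicate block the calls were 33, 4, 66, 7, 47, 0 and 39 in the same order (60 of 200 at an unadjusted p below 0.05 where edgeR called 0). Same-numbered libraries correlated at -0.21 to 0.156, 3 of 18 pairs above 0.1, and 3 of 12 libraries were closest to their own number, so the numbers were not taken as pairs.

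The ratio of the share to CK was 0.9748 (held-out CK), 0.9813 (100 features), 0.9278 (500) and 0.9316 to 0.9589 (leaving out 1 library) at 24 h. At 48 h it was 0.9996, 1.0273, 0.9517 and 0.9569 to 0.978. At 72 h 100 features gave 1.0325, and leaving out 1 library 0.9486 to 0.9927. The percent kept among the highest was 72.5 with medians, 70.0 with 100 features, 74.8 with 500 and 69.0 to 74.5 leaving out 1 library at 24 h, 70.0 to 79.5 at 48 h, and 69.0 with 500 features and 61.5 to 66.5 at 72 h. The median log2 change was -0.1214 (24 h) and -0.2577 (72 h) with library totals, and -0.2826 to -0.2373, -0.3784 to -0.2114 and -0.4356 to -0.3464 at 24, 48 and 72 h leaving out 1 library. The lowest count of any of the features was 737.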
